A study of Mus musculus with 8 samples.

Results

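The comparison of NOD.scid with NOD mice that carry no transgene rests on 4 of the 8 arrays of the series, 2 of whole pancreas from NOD.scid and 2 from NOD. All mice were 3 weeks old. Members were all 12422 probe sets that are not array controls, where a probe set is a group of short oligonucleotides for 1 transcript. They gave 8251 genes, each symbol being read from the probe set of highest mean signal across the series. The other 4 arrays hold BDC2.5/NOD (2) and BDC2.5/NOD.scid (2), which carry the T cell receptor transgene BDC2.5, and they enter only where the same 2 backgrounds are compared with the transgene present. Per the labels, RNA for a group came from 2 isolations of 6 animals each and was pooled. The labels do not say whether the arrays of a group are separate pools, so the p-values reflect array-to-array spread that may be purely technical.

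NOD is an inbred strain in which T cells infiltrate the islets of the pancreas and destroy the insulin-producing beta cells. The scid mutation truncates the product of Prkdc, the catalytic subunit of the DNA-dependent protein kinase. This kinase is needed for the joining of broken DNA ends when the gene segments of antigen receptors are recombined. NOD.scid mice therefore lack mature B and T cells and develop no autoimmune diabetes, while their myeloid cells and red cells are formed. Most of the pancreas is exocrine tissue, in which acinar cells make digestive enzymes at a very high rate and depend on the chaperones of the endoplasmic reticulum.

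Values are log2 signals as deposited, and a difference of 1 is a 2-fold change. In NOD.scid against NOD, 225 of 8251 genes (2.73%) passed an adjusted p of 0.05 in limma, of which 68 (0.824%) were higher and 157 (1.90%) lower. Over all probe sets, 292 of 12422 (2.35%) passed, 92 higher (0.741%) and 200 lower (1.61%). In each of these the difference had the same sign within the arrays of numbered titles and within those without a number. The same arrays were used to pick these probe sets, which favours such agreement in sign, so it is no independent replication. The titles are not stated to pair arrays. The median difference of all genes was 0.03, and the median size among those that passed was 0.56. A change of at least 2-fold was reached by 20 of the higher and 11 of the lower probe sets. Of the 15 named by size among the higher genes, 12 were carbonic anhydrase 2 and other genes of the erythrocyte, neutrophil and Reg lists, and the others were Pdxdc1, Tff1 and Pip4k2c. Those named by size among the lower genes included an immunoglobulin kappa segment, the glucocorticoid-regulated kinase Sgk1, the endoplasmic reticulum protein Herpud1 and the fat cell gene Adipoq. These counts moved with the arrays used: 71 probe sets passed without NOD replicate 2, 97 without NOD.scid replicate 2, 128 without NOD replicate 1, and 159 without either BDC2.5/NOD array, which enter only through the shared estimate of spread.

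**Figure D1:**
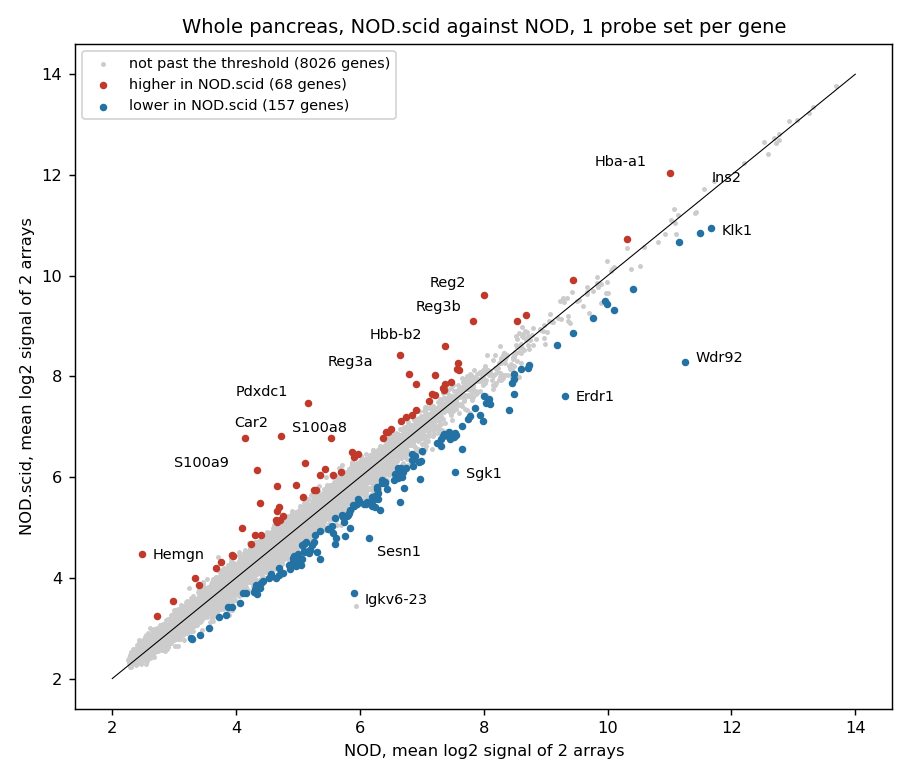
Mean log2 signal of each of 8251 genes in the 2 NOD arrays (horizontal axis) and the 2 NOD.scid arrays (vertical axis). Red and blue points are the 68 genes higher and the 157 lower in NOD.scid past an adjusted p of 0.05, grey points did not pass, and the line marks equal signal; Hba-a1 and Car2 lie above it, Wdr92 and Igkv6-23 below it.

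Across all 4 groups, paired arrays correlated at Pearson r from 0.9912 to 0.9961 over probe sets. The acinar markers fixed for the tissue were bright on every array used here, with Ctrb1 (chymotrypsinogen) at 13.66 to 13.77 and Cela1 (elastase) at 13.18 to 13.27. The middle beta-actin control was high on the numbered array of both groups (9.35 in NOD and 9.55 in NOD.scid) and low on the other (7.59 and 7.74). The 3′ to 5′ signal ratio of the GAPDH control, a sign of RNA quality, was 2.43 and 1.86 in NOD against 1.85 and 1.66 in NOD.scid. That of beta-actin was 4.90 and 3.53 against 3.94 and 3.29, so the numbered NOD array had the highest ratio of both controls, and the part of this in the results was not tested. Prkdc itself was at 3.49 and 3.70 in NOD and at 3.55 and 3.66 in NOD.scid, and since scid is a point mutation this signal does not check the labels. Xist, the RNA of the inactive X chromosome, was at 7.26 and 4.60 in NOD against 3.35 and 3.52 in NOD.scid (limma adjusted p = 0.0783). Of the other 4 sex-linked genes measured, Eif2s3y, encoded on the Y chromosome, passed at 0.66 (limma adjusted p = 0.0316). Its signal lay below the median of all probe sets (4.27) on every array. With 1 array left out its difference ranged from 0.49 to 0.83. The labels give no sex, and its part in the results below was not tested.

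Of 26 measured genes on the erythrocyte list, 11 rose in NOD.scid and 0 fell, against 0.824% and 1.90% of all genes, and the list median was 0.36 (0.03 over all genes). The sum of log2 signals over the list was 128.2 and 129.5 in NOD and 144.6 and 145.2 in NOD.scid. Hba-a1, an alpha globin, was at 11.10 and 10.92 in NOD and at 12.07 and 12.01 in NOD.scid. Both NOD.scid arrays lay above both NOD arrays, by 1.03 on average (SE 0.0843, limma adjusted p = 2.21e-05). With 2 arrays a group such a separation is common, as 25.2% of all genes lay apart in this direction and 18.7% in the other. Hbb-b2, a beta globin, had a mean of 7.38 (SD 0.161, n = 2) in NOD and of 8.60 (SD 0.148, n = 2) in NOD.scid, again without overlap. It differed by 1.22 (SE 0.104, limma adjusted p = 3.33e-05). In whole tissue, fewer or more cells of a type and less or more RNA per cell cannot be told apart.

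The other red cell genes that rose cover the membrane, haem synthesis and enzymes of the red cell. Slc4a1, the anion exchanger of the red cell membrane, was at 4.36 and 4.42 in NOD and at 5.48 on both NOD.scid arrays. Hemgn, a nuclear protein of erythroid precursors, was at 2.58 and 2.39 in NOD, which is below the median of all probe sets (4.27), and at 4.60 and 4.35 in NOD.scid. Its second probe set differed by 0.36 and did not pass (limma adjusted p = 0.158). Alas2, the first enzyme of erythroid haem synthesis, rose by 0.73, Rhd, the Rh blood group protein, by 0.73, Car1, an erythrocyte carbonic anhydrase, by 0.89, and Ank1, the ankyrin of the red cell skeleton, by 0.49. Among the 15 genes of the list that did not pass, the transcription factors Klf1 and Gata1 differed by 0.37 and 0.17 (limma adjusted p = 0.0851 and 0.457), the erythropoietin receptor Epor by -0.08 and the transferrin receptor Tfrc by 0.03.

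Car2, carbonic anhydrase 2, had the largest difference among the higher genes. It was at 4.10 and 4.18 in NOD and at 6.70 and 6.85 in NOD.scid. The groups did not overlap, and the difference of 2.63 (SE 0.107, limma adjusted p = 1.29e-07) is a 6.21-fold change. Car2 is made by red cells and by pancreatic ducts, and it stands on both lists. Of 17 measured duct genes 1 passed, Car2 itself, and the duct keratin Krt19 was at 0.16 (limma adjusted p = 0.68). Which cells the Car2 signal came from was not tested. Mgst3, a microsomal glutathione transferase, was at 4.62 and 4.70 in NOD and at 6.00 and 5.63 in NOD.scid. Prdx2, a peroxidase abundant in red cells, rose by 0.96 in its brightest probe set, while its other 2 probe sets were at -0.09 and -0.15 and did not pass. Both of these stand on the erythrocyte list and on the glutathione and antioxidant list. On the latter 3 of 35 genes rose (with Gpx4 at 0.52) and 1 fell (Txn1, thioredoxin, at -0.39). Over all genes 0.824% rose and 1.90% fell. Gpx4 did not pass without any 1 of the 4 arrays (limma adjusted p from 0.052 to 0.226), and Txn1 passed only without NOD.scid replicate 1, at 0.0396, against 0.152 to 0.252 without the other 3.

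Of 19 measured neutrophil granule genes, 6 rose and 0 fell, against 0.824% and 1.90% of all genes. All 19 differences were above 0, and the list median was 0.18 (0.03 over all genes). The sum of log2 signals over the list was 81.8 and 82.8 in NOD and 90.2 and 92.0 in NOD.scid. S100a8, a calcium-binding protein of neutrophil cytosol, was at 4.55 and 4.89 in NOD and at 6.70 and 6.94 in NOD.scid. Its partner S100a9 was at 4.29 and 4.37 in NOD and at 6.08 and 6.20 in NOD.scid. Both genes were without overlap between groups, at 2.10 (SE 0.202, limma adjusted p = 0.000106) and 1.81 (SE 0.108, limma adjusted p = 1.25e-06). Camp, the precursor of the antimicrobial peptide cathelicidin, rose by 1.25, Ngp, a protein of secondary granules, by 0.87, Ltf, lactoferrin, by 0.53 and Mpo, myeloperoxidase, by 0.49. The count was 3 without NOD replicate 2. Other genes of the list had small differences, with the elastase Elane at 0.30, Lcn2 at 0.14 and Mmp9 at 0.07. Of 26 macrophage and monocyte genes, 0 passed, and the complement gene C1qa was at 0.31 and the receptor gene Csf1r at 0.01. On the list of mast cells, basophils and eosinophils, 1 of 15 genes passed, Prg2, the major basic protein of eosinophil granules, at 0.66 (limma adjusted p = 0.00673). Its second, dimmer probe set differed by 0.28 and did not pass (limma adjusted p = 0.387). The call was lost without NOD.scid replicate 2, NOD replicate 1 or NOD replicate 2 (limma adjusted p = 0.0663, 0.0514 and 0.0566).

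**Figure D2:**
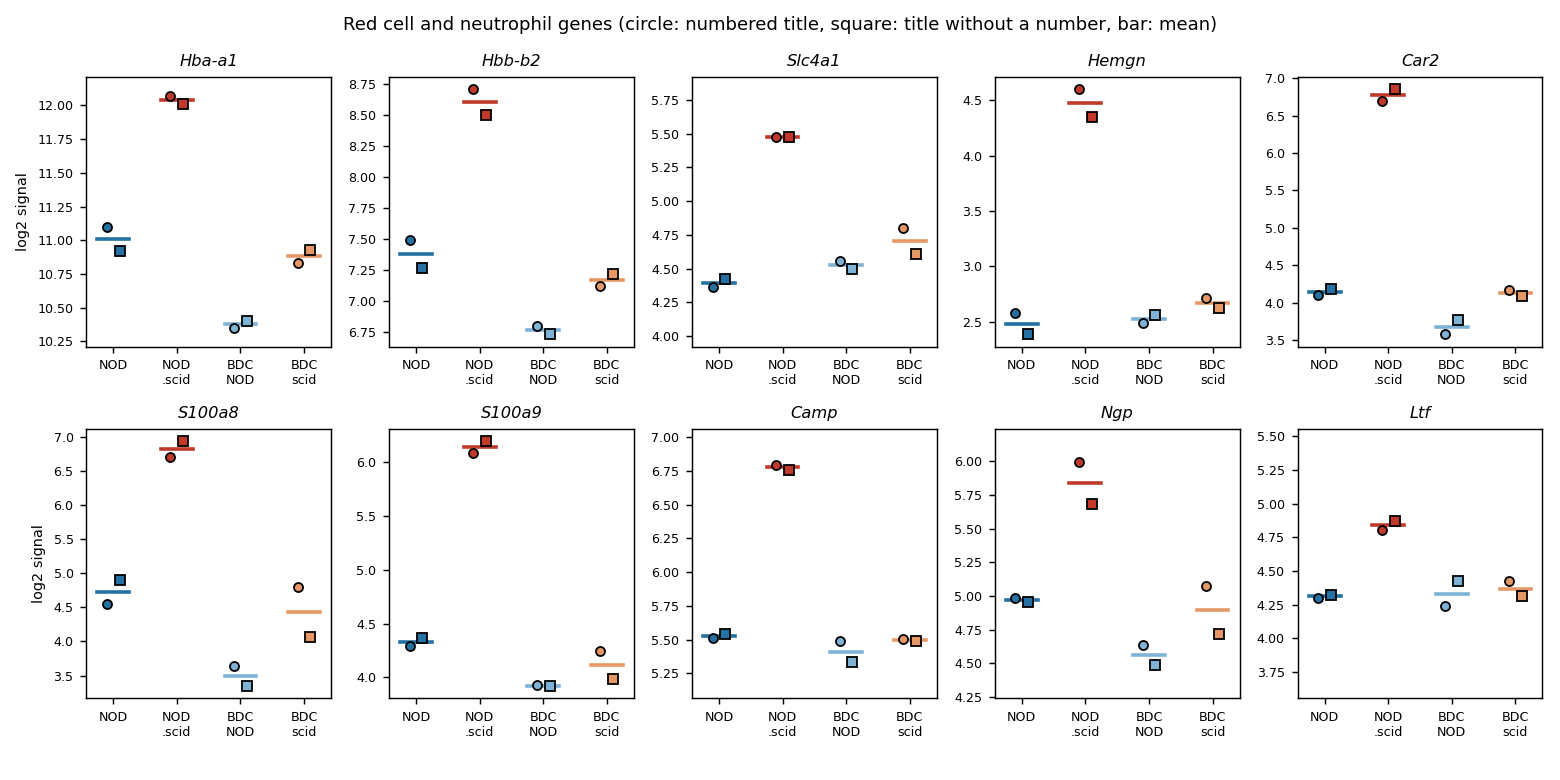
Log2 signal of 10 red cell and neutrophil genes on each of the 8 arrays, by group, on axes that differ between panels and do not start at 0. Circles are arrays with a numbered title, squares those without, and bars the mean of 2 arrays; in each panel both NOD.scid arrays lie above the other 6.

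The Reg family, secreted lectins that acinar cells make in inflammation and injury of the pancreas, split into members that rose and members that did not. Reg3a was at 6.72 and 6.58 in NOD and at 8.47 and 8.37 in NOD.scid, a rise of 1.77 (SE 0.0973, limma adjusted p = 8.41e-07). Reg2 was at 8.05 and 7.96 in NOD and at 9.65 and 9.60 in NOD.scid, a rise of 1.62. Reg3b was at 7.79 and 7.87 in NOD and at 9.09 on both NOD.scid arrays, a rise of 1.26. The groups did not overlap for any of the 3 genes. Reg3g was at 4.87 and 4.99 in NOD and at 5.18 and 5.02 in NOD.scid, a difference of 0.17 that did not pass (limma adjusted p = 0.574). Reg1 was near the top of the signal range in both groups and differed by 0.04. A second probe set of Reg3a and of Reg3b rose by 2.02 and 2.04, and a second one of Reg2 differed by 0.06 and did not pass. Of 17 genes on the list of the Reg family and pancreatic injury, these 3 rose and 0 fell, against 0.824% and 1.90% of all genes. The stress gene Nupr1 was at -0.57 (limma adjusted p = 0.112).

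On the 4 arrays with the transgene, these genes were higher in both backgrounds. Reg3b was at 12.92 and 12.94 in BDC2.5/NOD and at 12.91 and 12.86 in BDC2.5/NOD.scid, and Reg2 at 12.08 and 12.28 against 12.28 and 12.02. The level in NOD.scid thus lay between that of NOD and those of the transgenic groups for Reg2, Reg3a and Reg3b. Reg3g was at 10.27 and 10.35 in BDC2.5/NOD, so its probe set could read a high level.

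Reg3b and Reg3g lie in the same gene cluster but differed in this comparison, and their promoters are shown for that reason. The windows are the 250 bases before the start of the gene in the RefSeq promoter table for GRCm38.p6, chr6:78370635-78370884 on the plus strand for Reg3b and chr6:78468875-78469124 on the minus strand for Reg3g, each read 5′ to 3′. Capitals mark a match to TTCNNNGAA, the letters that STAT factors recognise, which are the same on both strands.
Reg3b: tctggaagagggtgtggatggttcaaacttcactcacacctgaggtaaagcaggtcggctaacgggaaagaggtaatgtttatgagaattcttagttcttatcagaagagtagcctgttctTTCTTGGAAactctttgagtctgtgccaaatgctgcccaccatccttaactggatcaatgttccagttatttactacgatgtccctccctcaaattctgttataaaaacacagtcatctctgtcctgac
Reg3g: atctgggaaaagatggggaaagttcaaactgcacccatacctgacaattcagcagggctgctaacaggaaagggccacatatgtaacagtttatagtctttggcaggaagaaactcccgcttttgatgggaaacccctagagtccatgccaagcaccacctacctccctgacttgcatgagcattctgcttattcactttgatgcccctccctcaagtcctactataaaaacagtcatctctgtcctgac
The pair shared 177 aligned bases, equal to 70.8% of the window, against 59.2% to 63.2% for the other 5 pairs among Reg2, Reg3a, Reg3b and Reg3g. Reg3b held 1 match to the letters, which ended 120 bases before the start, and Reg2, Reg3a and Reg3g held 0. The letters occur in 7.02% of 32851 promoter windows of that length, and a match is a description of the letters only.

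For 3 red cell genes that rose together, the windows are shown with the GATA letters AGATAA or TGATAA in capitals, searched on both strands, so that a match on the opposite strand reads as its reverse complement. They are chr11:32283422-32283671 on the plus strand for Hba-a1, chrX:150547167-150547416 on the plus strand for Alas2 and chr4:46404184-46404433 on the minus strand for Hemgn.
Hba-a1: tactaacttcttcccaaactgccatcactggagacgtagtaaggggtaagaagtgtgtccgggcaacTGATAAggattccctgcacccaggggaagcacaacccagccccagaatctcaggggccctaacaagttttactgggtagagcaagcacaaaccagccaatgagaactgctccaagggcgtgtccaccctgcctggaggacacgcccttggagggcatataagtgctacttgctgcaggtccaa
Alas2: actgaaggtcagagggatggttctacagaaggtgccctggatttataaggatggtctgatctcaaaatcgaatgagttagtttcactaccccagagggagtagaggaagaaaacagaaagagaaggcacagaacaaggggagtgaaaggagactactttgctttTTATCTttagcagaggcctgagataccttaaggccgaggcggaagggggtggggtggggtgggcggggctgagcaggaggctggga
Hemgn: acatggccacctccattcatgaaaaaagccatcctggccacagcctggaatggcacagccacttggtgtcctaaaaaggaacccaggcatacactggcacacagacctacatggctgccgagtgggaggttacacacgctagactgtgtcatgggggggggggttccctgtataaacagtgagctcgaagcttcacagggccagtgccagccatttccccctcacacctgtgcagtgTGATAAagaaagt
Each held 1 match, and the letters occur in 16.6% of all windows. The match ended 177 bases before the start in Hba-a1, 80 in Alas2 and 7 in Hemgn. These 3 genes were picked from the red cell genes that rose, and no result is given for the others. Hbb-b2, Slc4a1 and Car2 had no promoter window. A match is a description of the letters only.

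Antigen receptor genes are read here because scid mice lack mature B and T cells. Of 77 immunoglobulin probe sets, 2 fell and 0 rose, and of 13 T cell receptor probe sets 0 passed. These shares are near the 2.35% of all probe sets that passed, so the counts say nothing particular about the receptor genes. The 2 that fell were kappa light chain probe sets. The one for Igkv6-23, a variable segment of the kappa chain, was at 6.03 and 5.76 in NOD and at 3.81 and 3.57 in NOD.scid, a fall of 2.21 (SE 0.122, limma adjusted p = 8.41e-07). The other, which the annotation gives to several kappa segments with the constant region Igkc, was at 7.36 and 7.35 in NOD and at 5.25 and 5.41 in NOD.scid. Both NOD arrays lay above the other 6 arrays in each. In BDC2.5/NOD, which does not carry scid, Igkv6-23 was at 4.13 and 4.22, below BDC2.5/NOD.scid at 4.82 and 4.96.

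Ighm, the constant region of the mu heavy chain, was at 5.57 and 5.89 in NOD and at 5.02 and 5.44 in NOD.scid. The groups did not overlap, but the difference of -0.50 did not pass (limma adjusted p = 0.111). Of 21 B cell and plasma cell genes, 0 passed, and the B cell receptor chains Cd79a and Cd79b and the surface protein Ms4a1 each differed by 0.02. Jchain, the joining chain of secreted antibodies, was at -0.21 (limma adjusted p = 0.357). Of 22 T cell genes 0 passed, with the receptor subunit Cd3e at -0.03, Cd4 at 0.12 and Cd8a at 0.13. The summed log2 signal of the B cell list was 93.7 and 94.8 in NOD and 93.7 and 94.3 in NOD.scid, and that of the T cell list was 97.4 and 97.5 against 97.7 and 98.8. Glycam1, a mucin of the high endothelial vessels of lymph nodes, fell by 0.44 (limma adjusted p = 0.0344) at a signal below the median of all probe sets, as 1 of 10 genes on the lymphoid stroma list. Without any 1 of the 4 arrays it did not pass (limma adjusted p from 0.0997 to 0.167), and the list's count was then 0.

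On the type I interferon list, 2 of 17 genes rose and 0 fell, against 0.824% of all genes that rose. Ifi27, an interferon-induced protein, was at 7.18 and 7.24 in NOD and at 7.98 and 8.09 in NOD.scid, and Rsad2, the antiviral protein viperin, at 3.76 and 3.74 against 4.36 and 4.27. Both passed, at 0.82 (limma adjusted p = 0.00028) and 0.57 (limma adjusted p = 0.0104), and 16 of the 17 differences were above 0 with a median of 0.11 (0.03 over all genes). Without either NOD array the count was 1, with Rsad2 at an adjusted p of 0.0607 (without replicate 1) and 0.0826 (without replicate 2) in limma. In BDC2.5/NOD, which does not carry scid, Ifi27 was at 8.02 and 7.93, and both NOD arrays lay below the other 6. The lists of MHC class I and interferon gamma response (24 genes) and of MHC class II (12 genes) had 0 genes past the threshold.

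Among acinar genes, 4 of 20 fell and 0 rose, against 1.90% and 0.824% of all genes, with a list median of -0.09. The main digestive enzymes did not pass, with Ctrb1 at 0.07, Cela1 at -0.04 and the lipase Cel at 0.02. The trypsinogen Prss2 was at 0.14 and the amylase Amy1 at -0.39 (limma adjusted p = 0.167). Ctrb1 and Cela1 were near the highest signal of any array (13.78), where a difference may not show in full. Klk1, tissue kallikrein, was at 11.61 and 11.73 in NOD and at 10.95 and 10.96 in NOD.scid. It fell by 0.71 (SE 0.076, limma adjusted p = 0.000272) without overlap. Cuzd1, a zymogen granule membrane protein, fell by 0.71, Dmbt1, a secreted scavenger receptor, by 0.48 and Pnliprp2, a lipase-related protein, by 0.47. Without NOD replicate 2 the count was 1, and without NOD.scid replicate 2 it was 2.

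Of 27 genes of the unfolded protein response, the program that endoplasmic reticulum stress induces, 4 fell and 0 rose. Over all genes 1.90% fell and 0.824% rose. The list median was -0.15 (0.03 over all genes). Herpud1, a membrane protein of the reticulum's degradation pathway, was at 8.55 and 8.28 in NOD and at 7.51 and 7.15 in NOD.scid. Hsp90b1, the chaperone GRP94, was at 8.42 and 8.55 in NOD and at 7.68 and 7.62 in NOD.scid. Both were without overlap and fell by 1.08 (SE 0.119, limma adjusted p = 0.000338) and 0.83 (SE 0.0888, limma adjusted p = 0.000272). Hspa5, the chaperone BiP, fell by 0.59 and Atf6, a sensor of the response, by 0.56. With 1 of the 4 arrays left out, the difference of Hspa5 ranged from -0.68 to -0.50 and that of Atf6 from -0.69 to -0.435. The count was 2 without NOD replicate 2 and without NOD.scid replicate 2. Among genes of amino acid supply that ATF4 controls, 2 of 25 fell, against 1.90% of all genes. They were the asparagine synthetase Asns, by 0.61, and the mitochondrial folate enzyme Mthfd2, by 0.49. The count was 1 without NOD.scid replicate 2 and without NOD replicate 1, and 0 without NOD replicate 2. Hspa9, the mitochondrial chaperone mortalin, was at 6.33 and 6.31 in NOD and at 5.55 and 5.16 in NOD.scid, and fell by 0.97 as the 1 of 19 genes on the heat shock list that passed.

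The promoter of Hspa5 is shown because the endoplasmic reticulum stress element is a known control site of this gene group. The letters searched were CCAAT, then 9 bases of any kind, then CCACG. The window is chr2:34771840-34772089 on the plus strand, and capitals mark the 1 match, which ended 46 bases before the start.
Hspa5: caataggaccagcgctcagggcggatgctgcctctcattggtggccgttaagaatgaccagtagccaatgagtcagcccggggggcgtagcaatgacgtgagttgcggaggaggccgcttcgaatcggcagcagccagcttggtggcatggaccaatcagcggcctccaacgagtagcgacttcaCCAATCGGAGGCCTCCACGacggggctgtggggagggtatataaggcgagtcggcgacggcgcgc
These letters occur in 37 of 32851 windows (0.113%), searched on both strands, and the window of Herpud1 held 0. Forms of the element with other spacing were not searched, so this does not show that Herpud1 lacks one.

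Of 16 measured genes that glucocorticoids or metals induce, 4 fell and 0 rose, against 1.90% of all genes that fell. The list median was -0.02, and 6 of the 16 differences were above 0. Sgk1, a kinase of ion transport that glucocorticoids induce, was at 7.52 and 7.54 in NOD and at 6.30 and 5.88 in NOD.scid, a fall of 1.44 (SE 0.127, limma adjusted p = 4.59e-05) without overlap. Mt1, a metallothionein that binds zinc, was at 10.44 and 10.38 in NOD and at 9.70 and 9.78 in NOD.scid. It fell by 0.67 and its neighbour Mt2 by 0.46, and the clock gene Per1 fell by 0.47. The count was 2 without NOD replicate 1, without NOD replicate 2 and without NOD.scid replicate 2. Sesn1, a sestrin of the stress response that p53 induces, was at 6.05 and 6.25 in NOD and at 4.78 and 4.80 in NOD.scid, a fall of 1.36 (SE 0.097, limma adjusted p = 6.78e-06). It was the 1 of 20 p53 target genes that passed.

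**Figure D3:**
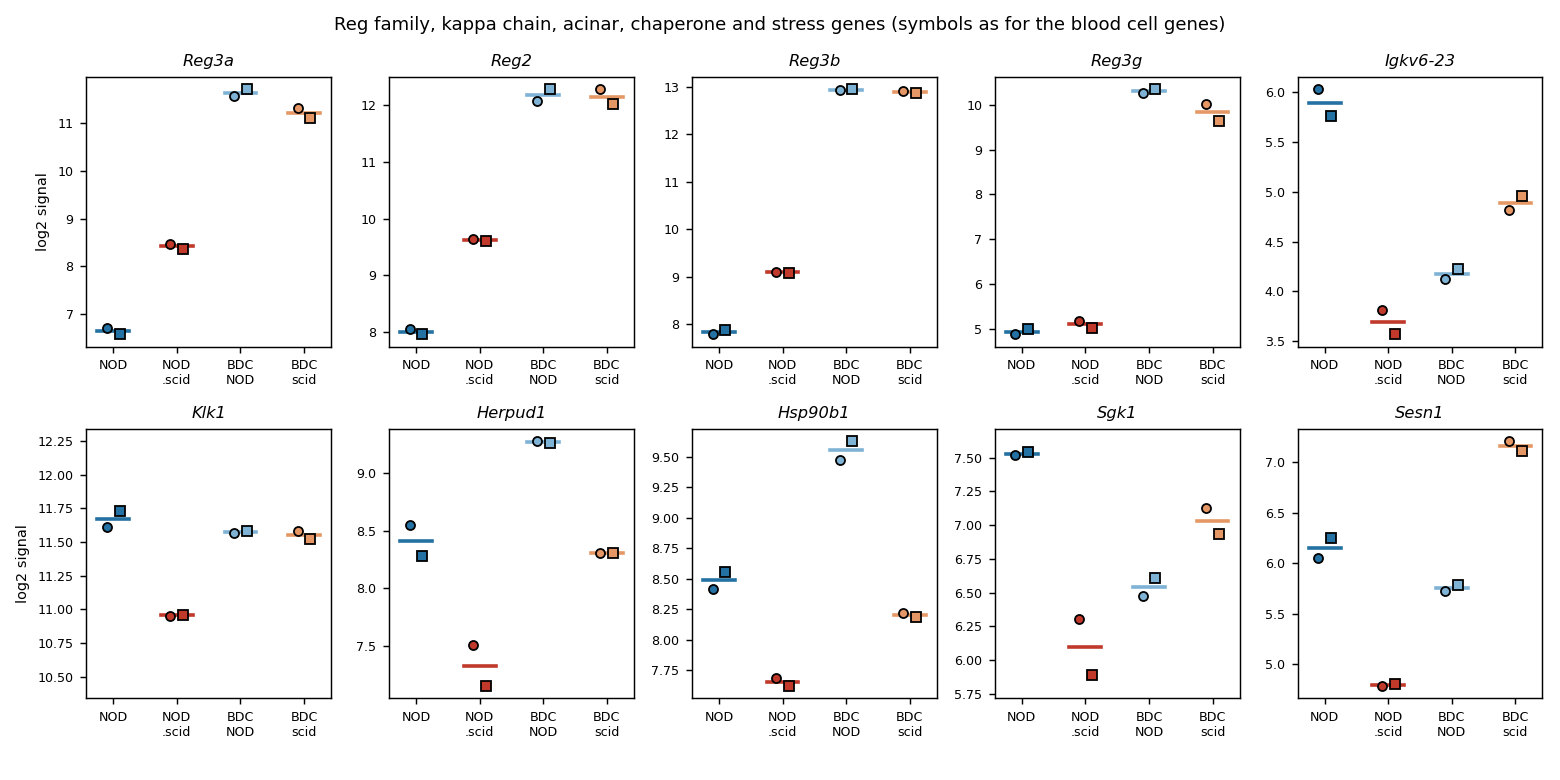
Log2 signal of 10 genes on each of the 8 arrays, by group, on axes that differ between panels and do not start at 0. The genes are of the Reg family, a kappa segment, an acinar gene, 2 genes of the unfolded protein response and 2 stress genes. Circles are arrays with a numbered title, squares those without, and bars the mean of 2 arrays; Reg3a, Reg2 and Reg3b lie between NOD and the transgenic groups in NOD.scid, and the lower row has its lowest signals in NOD.scid.

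On the list of fat cells and lipogenesis, 3 of 25 genes fell and 0 rose, against 1.90% and 0.824% of all genes. The list median was -0.05, and 9 differences were above 0. Adipoq, adiponectin, was at 5.26 and 5.46 in NOD and at 4.20 and 4.55 in NOD.scid. Scd1, the stearoyl-CoA desaturase of fatty acid synthesis, was at 6.62 and 6.67 in NOD and at 5.48 and 5.54 in NOD.scid. Car3, the carbonic anhydrase of fat and muscle, fell by 0.94. Of the genes that did not pass, Fabp4, the fatty acid carrier of fat cells, was at -0.23 (limma adjusted p = 0.436) and leptin, Lep, at -0.09. A second probe set of Scd1 fell by 0.98 and another, at 0.10, did not pass. The count was 1 without NOD replicate 2.

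Endocrine and structural lists gave little. Of 14 beta cell genes and 9 other islet genes, 0 passed. Ins2, insulin, was at 11.59 and 11.53 in NOD and at 11.64 and 11.81 in NOD.scid, a difference of 0.17 (limma adjusted p = 0.42). Gcg, glucagon, differed by -0.49 and Sst, somatostatin, by 0.31, and neither passed (limma adjusted p = 0.102 and 0.111). Of 38 proliferation genes 0 passed. Of their differences 36 were above 0, with a median of 0.14 (0.03 over all genes). Lists of endothelium, of the respiratory chain, of natural killer cells and of DNA end joining, which includes Prkdc, also had 0. In all, 24 of 43 lists had at least 1 gene past the threshold. Over all genes 2.73% passed, so a single gene past it says nothing particular about its list.

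**Figure D4:**
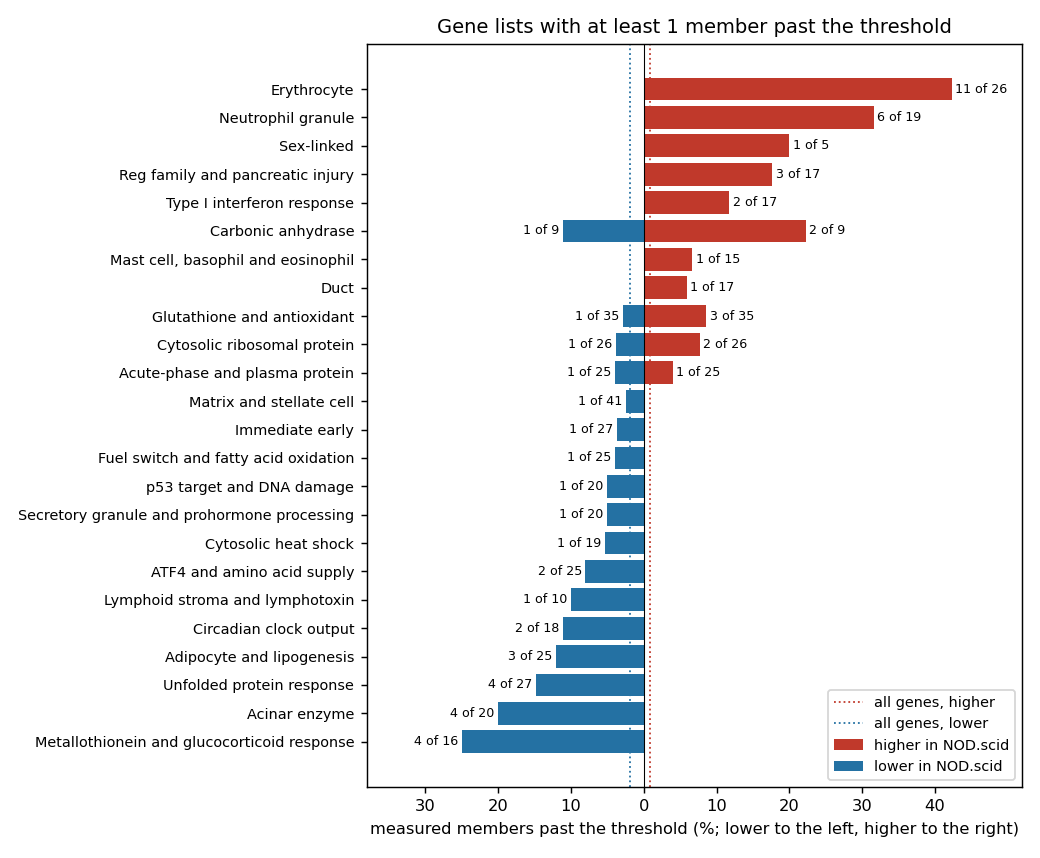
Percentage of the measured genes of each list that were higher (right, red) or lower (left, blue) in NOD.scid past an adjusted p of 0.05, with the counts beside the bars, for the 24 lists with at least 1 such gene. Dotted lines mark the shares of all genes, 0.824% higher and 1.90% lower; the erythrocyte list reaches 11 of 26.

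Some of the largest differences stood on no list. A probe set that the platform annotation gives to Wdr92, which may be the wrong transcript, was at 11.33 and 11.17 in NOD and at 8.65 and 7.94 in NOD.scid. Both NOD.scid arrays lay far below the other 6, and the fall of 2.96 (SE 0.168, limma adjusted p = 8.7e-07) was the largest in either direction among genes that passed. Erdr1, a gene of the region shared by the X and Y chromosomes, was at 9.30 and 9.33 in NOD and at 7.66 and 7.57 in NOD.scid. Its second probe set was at -0.18 and did not pass. Tff1, a trefoil peptide of gastric mucus, was at 6.81 and 6.76 in NOD and at 7.97 and 8.14 in NOD.scid, a rise of 1.26 (SE 0.0966, limma adjusted p = 1.17e-05). The other trefoil genes Tff2 and Tff3, looked up after Tff1 was seen, differed by 0.17 and 0.27 and did not pass, and nor did the stomach proton pump Atp4a at 0.37 (limma adjusted p = 0.0767). Adk, adenosine kinase, fell by 1.10, Lifr, the receptor of leukaemia inhibitory factor, by 0.93, Arg2, the mitochondrial arginase, by 0.93 and Nucb2, a calcium-binding protein, by 1.0. For Adk and Arg2, dim further probe sets did not pass, and for Lifr 2 of 4 further probe sets fell. A probe set of Pip4k2c, a lipid kinase, rose by 1.17, and its other one differed by 0.04. The call was lost without NOD.scid replicate 1, NOD replicate 1 or NOD replicate 2 (limma adjusted p = 0.0535, 0.0965 and 0.061).

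The probe sets of Pdxdc1, a decarboxylase-like protein, went opposite ways. The brightest was at 5.16 and 5.15 in NOD and at 7.57 and 7.36 in NOD.scid, a rise of 2.31 (limma adjusted p = 2.87e-07). In the other 2 it fell, by 1.0 (limma adjusted p = 0.000249) and by 0.63 (limma adjusted p = 0.0035). The mean of the 3 probe sets differed by 0.23 and did not pass (limma adjusted p = 0.216), so no direction is given for the gene. Pdxdc1 is 1 of the 40 measured genes nearest to Prkdc on chromosome 16, 20 on each side in gene order, the region in which DNA of the strain where scid arose can be carried along when the mutation is bred into another strain; whether it was retained here was not tested. Of these 40, 3 passed (7.5%, against 2.73% of all genes). The other 2, named after their values were seen, were Mzt2, the nearest measured gene on its side, at 0.47 (limma adjusted p = 0.0185) and Gspt1 at -0.62 (limma adjusted p = 0.00877). With 10 genes on each side 2 of 20 passed, and with 40 on each side 3 of 80 (3.75%). In BDC2.5/NOD, which does not carry scid, the brightest Pdxdc1 probe set was at 7.20 and 7.39, near its level in NOD.scid. Between the groups with the transgene, Gspt1 differed by -0.51 (limma adjusted p = 0.0103). There Mzt2, at 0.255, and the brightest Pdxdc1 probe set, at -0.31, did not pass.

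Whether scid changed these genes in the same way when the BDC2.5 transgene was present was asked with the second pair of groups, which shares no array with the first. With the transgene, 763 of 8251 genes (9.25%) and 1037 of 12422 probe sets (8.35%) passed. Of the 225 genes that passed without it, 73 also passed with it, 49 in the same direction and 24 in the opposite one. The 49 are 21.8% of the genes without the transgene and 6.42% of those with it. The difference between both scid effects passed for 89 of the 225 (5.38% of all genes and 4.72% of all probe sets). This contrast holds the arrays on which the 225 genes were found, so the share is a description. NOD.scid stood beyond all 6 other arrays for 130 of the 225 genes (11.5% of all genes), and NOD did so for 104 (15.2% of all genes), with some genes in both counts. Among the 104 were Adipoq and Erdr1. Their means in BDC2.5/NOD, which does not carry scid, were 4.26 and 8.01, nearer to NOD.scid (4.38 and 7.62) than to NOD (5.36 and 9.31).

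Herpud1, Hsp90b1, Hspa5, Scd1 and Car3 fell with and without the transgene. Herpud1 was at 9.28 and 9.26 in BDC2.5/NOD and at 8.31 on both BDC2.5/NOD.scid arrays, a fall of 0.96 against 1.08 without it. Scd1 fell by 1.0 with it and 1.13 without, and the difference between the 2 effects was 0.13 (SE 0.13, limma adjusted p = 0.694). Car3 fell by 0.73 with it and 0.94 without. Adipoq and Hspa9 did not pass with it, at -0.03 and -0.30 (limma adjusted p = 0.952 and 0.222). Hsp90b1 and Hspa5 fell further with the transgene, by 1.34 and 1.31, and here the differences between the effects passed, at -0.51 (limma adjusted p = 0.0375) and -0.72 (limma adjusted p = 0.0365). Other genes went the opposite way. Sesn1 rose by 1.41 with the transgene, Mt1 by 1.44, Mt2 by 1.36 and the copper protein Cp by 0.97, after falls of 1.36, 0.67, 0.46 and 0.48 without it. Igkv6-23 rose by 0.71, and Itih4, an acute-phase protein, fell by 1.27 after a rise of 0.48. The red cell genes Hba-a1 and Hbb-b2 rose in both settings, by 0.51 and 0.41 with the transgene, and S100a8 by 0.94 (limma adjusted p = 0.0124), in each case by less than without it. Slc4a1, Hemgn, S100a9, Camp and Tff1 did not pass with the transgene, and their differences between the effects did.

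**Figure D5:**
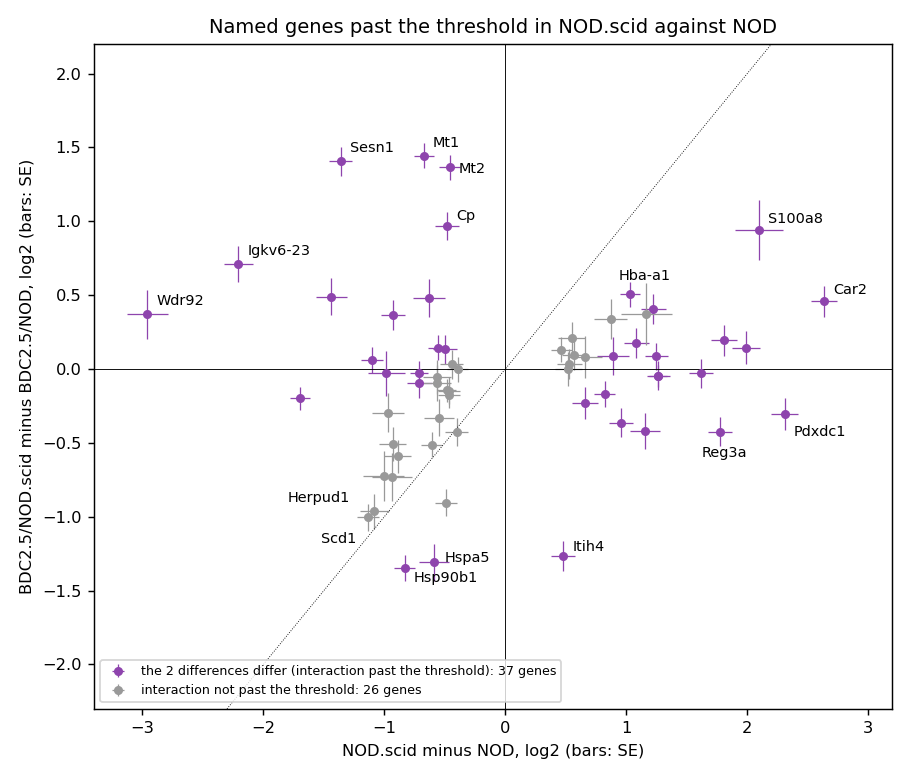
Difference between scid and NOD backgrounds without the transgene (horizontal axis) and with it (vertical axis), log2, for 63 named genes past the threshold without it; bars are SE and the dotted line marks equal differences. For 37 genes, in purple, the 2 differences themselves differ past an adjusted p of 0.05; Herpud1 and Scd1 lie near the line, while Sesn1, Mt1, Mt2 and Cp lie on the opposite side of 0.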

How the data were processed

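Total RNA of whole pancreas was hybridised to Affymetrix arrays per the labels, which also name guanidine isothiocyanate extraction. The deposited table gives log2 values for 12488 probe sets per array, with 66 controls left out. The base was inferred from the values, whose highest is 13.78, and the steps by which the authors made these log2 values were not given in the sources used here. Of 12422 probe sets, 10833 had 1 symbol in the platform annotation, 396 several and 1193 none.

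The 4 groups of 2 arrays were fitted together with limma 3.58.1 in R 4.3.3 (4 residual degrees of freedom, prior 8.07, variance trend), two-sided, with Benjamini-Hochberg adjustment over all probe sets and a threshold of 0.05. The interaction is the scid effect with the transgene minus that without it. Tests were tried on simulated data. Tables used pandas 2.3.3 and plots matplotlib 3.10.9.

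Genes named were up to 15 per direction by size past the threshold, without overlap between groups, with the higher mean above the median of all probe sets (4.27) and 1 symbol, up to 5 per list by p, and a set always given. Members, lists and named genes were chosen with earlier results of these data known. Gene lists (43) were described by counts and medians only. The number of arrays limits the precision.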

Additional observations from a re-analysis of the deposited data

Results flagged for a closer look

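For 40 of the 80 named genes the scid effect with the transgene differed from that without it past an adjusted p of 0.05 in limma (5.38% of all genes passed). The values below are the effect with the transgene minus the effect without it, on the log2 scale. Most of these genes were named for a large difference in NOD.scid against NOD, which enters this contrast, so their number is no independent evidence.

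Values below 0 mean that NOD.scid stood higher against NOD without the transgene than with it. Among red cell and antioxidant genes they were -2.18 for Car2, -1.84 for Hemgn, -1.57 for Mgst3, -1.32 for Prdx2, -0.91 for Slc4a1, -0.82 for Hbb-b2, -0.80 for Car1 and -0.53 for Hba-a1. Among granulocyte genes they were -1.61 for S100a9, -1.16 for Camp, -1.16 for S100a8 and -0.89 for Prg2, and among the Reg genes and the trefoil peptide -2.20 for Reg3a, -1.65 for Reg2, -1.31 for Reg3b and -1.31 for Tff1. Further values were -1.74 for Itih4 and -0.99 for Ifi27. The brightest of the 3 probe sets of Pdxdc1 was at -2.62, while the other 2 were at 1.0 and 0.55 and also passed (limma adjusted p = 0.00205 and 0.0299), so no direction is given for the gene. For 2 chaperone genes that fell in both settings, and for insulin, they were -0.72 for Hspa5, -0.51 for Hsp90b1 and -0.71 for Ins2.

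Values above 0 mean that the effect with the transgene lay higher. For genes of antibody-making cells they were 2.92 for Igkv6-23 and 0.67 for Jchain, where Jchain rose by 0.46 with the transgene and did not pass without it. Among stress genes they were 2.77 for Sesn1, 2.12 for Mt1, 1.93 for Sgk1, 1.83 for Mt2, 1.45 for Cp and 0.63 for Mcl1. The acinar genes were at 0.69 for Klk1 and 0.62 for Cuzd1. Metabolic, receptor and ribosomal genes were at 1.29 for Lifr, 1.16 for Adk, 1.11 for Acadm, 0.95 for Adipoq and 0.70 for Rpl7. For the remaining genes the values were 3.33 for the probe set annotated to Wdr92, which may be the wrong transcript, 1.5 for Erdr1 and 3.85 for Xist, and Xist was uneven between the arrays of a group, at 7.26 and 4.60 in NOD.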

How the results depend on the processing

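Without any 1 array, the probe sets past the threshold numbered 71 (without NOD replicate 2) to 352 (without NOD.scid replicate 1), with 31 to 108 higher and 40 to 244 lower. The interaction gave 195 to 491 probe sets and the Prkdc neighbours 1 to 3. Fitting only the 4 arrays gave 143 (43 higher, 100 lower), an actin control term 739 (252 higher, 487 lower), with 1042 for the interaction and 5 Prkdc neighbours, a threshold of 0.01 gave 109 (36 and 73), with 229 for the interaction, and a fold change of at least 2 gave 31 (20 and 11), with 136 and 1. Quantile normalization (308), median centring (337), a filter on dim probe sets (275), no variance trend (277) and array weights (221) stayed within 1.5 times of 292. Of 63 named genes past the threshold, 29 passed in all alternatives tried and 34 missed it in at least 1, and 0 turned direction.

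Numbered and unnumbered titles are not stated to pair arrays: deviations correlated at 0.29 between NOD and NOD.scid and at -0.32 to 0.00 between other groups. With the title number as a replicate block, 195 probe sets passed (59 higher, 136 lower), all of them among the 292. With that block and only the 4 arrays, 932 passed (322 higher, 610 lower), with 4 receptor probe sets and 5 Prkdc neighbours.

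With 2 arrays a group, only large or tight differences can pass. Signals below 4.27 lie under the median of all probe sets. A difference of a dim gene that did not pass, such as Cd79b or Cd8a, is not shown to be absent. The lymphocyte genes Cd3e, Cd4, Cd79a and Ms4a1 lay above that median in both groups and did not pass either. Whether their probe sets read lymphocytes here was not tested.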

Other observations

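The gene family around Klk1, glandular kallikreins that cleave secreted peptides, was looked at after Klk1 was seen to fall. Its 14 probe sets were all lower in NOD.scid, with a median of -0.58 and a range of -0.78 to -0.15, and 8 passed in limma (1.61% of all probe sets fell). Klk1b5 was at 10.09 and 10.12 in NOD and at 9.45 and 9.19 in NOD.scid, and Klk1b1 at 11.38 and 11.60 against 10.73 and 10.95. With the transgene the 14 differences lay between -0.24 and 0.17, and 0 passed. The family's probe sets can read more than 1 member, so they are not separate measurements.

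Other values were singled out after they were seen. A probe set of Ctse, the protease cathepsin E, was at 3.01 and 3.09 in NOD and at 4.60 and 4.68 in NOD.scid, a rise of 1.59 (limma adjusted p = 2.28e-06), while its 2 brighter probe sets were at -0.22 and -0.42 and did not pass. Errfi1, a feedback inhibitor of the EGF receptor, fell by 0.77 without the transgene and rose by 1.93 with it, and the effects differed by 2.70 (limma adjusted p = 3.87e-07). Its second probe set was at -0.30 without the transgene and did not pass (limma adjusted p = 0.238), and it rose by 1.08 with it. A dim probe set of Gadd45b, a stress-induced gene, fell by 0.76 and its brighter one differed by -0.07. Ifitm3, an interferon-induced membrane protein, rose by 0.68 (limma adjusted p = 0.00367) and the nuclease Isg20 by 0.51 (limma adjusted p = 0.0359). In BDC2.5/NOD, which does not carry scid, Ifitm3 was at 8.60 and 8.59, above both NOD.scid arrays. Npm1, nucleophosmin, fell by 0.72 and the chaperonin subunit Cct5 by 0.71, whose second probe set was at -0.18.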
